A study of Homo sapiens with 12 samples.

Results

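PIM1, PIM2 and PIM3 encode the PIM kinases, SOCS1, SOCS2, SOCS3 and CISH encode feedback inhibitors of cytokine signalling, and STAT3, STAT5A and STAT5B encode the transcription factors that connect both groups to cytokine receptors. These 10 genes were taken by symbol from the 20003 genes measured, and all 10 were found in the files. They were selected on their FPKM in the same control and OGP46 samples that are described here, with results of these data already known, so their values are a description. No p-value of theirs is printed, and how many passed a threshold is given only beside the share of all genes that did. The mRNA was measured in 2 human acute myeloid leukemia cell lines, NB4 and Kasumi-1. NB4 is an acute promyelocytic leukemia line that carries the PML-RARα fusion, and Kasumi-1 is an AML-M2 line with the t(8;21) translocation, which makes the AML1-ETO fusion. Each line had 3 control samples treated with DMSO and 3 samples treated with 1 μM OGP46 for 48 h, as the sample labels give it (a figure legend of the study names a longer time), and the samples of each group are numbered 1 to 3. OGP46 is a kaurene diterpenoid made from oridonin. With a single line of each leukemia type, the fusion cannot be told apart from everything else in which the lines or their cultures differ. The labels do not say whether the 3 samples came from separate cultures. The study's legend speaks of 3 independent experiments for its sequencing figure. It does not tie them to the numbered samples, so the spread may be technical.

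Cytokine receptors of blood cells signal through JAK kinases, which phosphorylate STAT3 and STAT5. The phosphorylated STAT factors enter the nucleus and switch on their target genes, among them PIM1, PIM2, CISH, SOCS1, SOCS2 and SOCS3. PIM kinases are serine/threonine kinases that are active as soon as they are made, so their mRNA level matters for their activity, and they favour survival and growth of leukemic cells. SOCS proteins and CISH bind JAK kinases or the receptors and damp the signal, which closes a feedback loop.

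The sequence motif that STAT3 and STAT5 dimers bind, TTCNNNGAA, reads the same on both strands, and it was searched in the 250 bases before each RefSeq gene start of GRCh38.p14. Of the 10 genes, 9 had an entry, with 12 start sites in all. CISH had 4 matches and the other 8 genes had 0. Among all 35114 such windows, 6.567% held a match and 5 held 4 matches or more. The CISH matches lay in pairs, which are shown because no other of these genes had a match in its window. The first run is chr3:50611996-50612015 on the minus strand, 241 to 222 bases before the start, and the second is chr3:50611878-50611903 on the minus strand, 129 to 104 bases before the start. The third run is the window of PIM1, chr6:37169902-37170151 on the plus strand, shown because PIM1 was the member whose mRNA differed most between OGP46 and control. Capitals mark the motif.
CISH distal pair: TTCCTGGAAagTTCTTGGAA
CISH proximal pair: TTCTAGGAAgacgctgcTTCCGGGAA
PIM1 window: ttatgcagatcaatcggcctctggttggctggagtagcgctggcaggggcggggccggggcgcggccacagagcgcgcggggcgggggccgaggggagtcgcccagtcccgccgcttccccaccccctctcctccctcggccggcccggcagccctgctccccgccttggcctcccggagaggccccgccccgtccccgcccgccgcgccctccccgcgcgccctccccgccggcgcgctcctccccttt
The CISH motifs of each pair stand close together, and the PIM1 window, with no motif, is 79.6% G and C. A match shows only that these letters are present, and binding was not measured.

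Levels are given in FPKM, a fragment count corrected for exon length and for library size, which are per length and can therefore be set side by side between genes. The lines matched their labels by RUNX1T1, the partner gene of the t(8;21) fusion, which was between 8.17 and 9.66 FPKM in the 6 Kasumi-1 samples and at most 0.0762 FPKM in the 6 NB4 samples. NB4 control 3 stood apart by a small signal of Kasumi-1 markers. The sum of the 5 Kasumi-1 markers RUNX1T1, KIT, CD34, TRH and POU4F1 reached 3.60 FPKM in NB4 control samples and 1.30 FPKM in NB4 OGP46 samples, against 263 to 299 FPKM in Kasumi-1 control samples. The markers listed for NB4 did not separate the lines as their name says, since PRTN3, ELANE and AZU1 were higher in Kasumi-1, GABRE was at most 0.00612 FPKM in all 12 samples, and STAB1 alone was higher in each NB4 sample. Across the 12 samples the FPKM summed to between 248207 and 310262, and between 9339 and 9746 genes had at least 1 FPKM. Sequencing depth is unknown, and in bulk samples fewer cells of a type cannot be told apart from less RNA per cell.

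Before treatment, PIM3 was the most abundant PIM mRNA in both lines. PIM3 measured 32.6, 27.8 and 32.3 FPKM in NB4 control samples 1, 2 and 3 and 31.2, 37.3 and 36.1 FPKM in Kasumi-1 control samples 1, 2 and 3, so the lines overlapped. PIM2, a kinase that promotes protein synthesis and survival, measured 14.3, 11.6 and 16.7 FPKM in the NB4 controls and 6.79, 8.22 and 6.54 FPKM in the Kasumi-1 controls. Every NB4 control lay above every Kasumi-1 control for PIM2, as for 34.6% of all genes. Groups that lie apart in either direction were found for 77.7% of all genes. PIM1, the founding member of the family, measured 7.32, 3.13 and 5.83 FPKM in the NB4 controls and 4.95, 5.85 and 5.95 FPKM in the Kasumi-1 controls, again with overlap. PIM1 made up 7.36% to 13.5% of the summed PIM mRNA in NB4 controls and 11.4% to 12.2% in Kasumi-1 controls, while PIM3 made up 59.0% to 65.3% and 72.6% to 74.3%.

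The feedback inhibitors were low in both lines, and the lines differed in their levels of SOCS1, SOCS2 and SOCS3. SOCS1, which inhibits JAK kinases directly, measured 2.29, 2.18 and 2.85 FPKM in the NB4 controls and was listed at 0 in all 3 Kasumi-1 controls. SOCS2, known as an inhibitor of growth hormone signalling, measured 1.29, 1.78 and 1.09 FPKM in the NB4 controls and 4.33, 4.97 and 5.08 FPKM in the Kasumi-1 controls. SOCS1 was higher in each NB4 control and SOCS2 in each Kasumi-1 control. SOCS3, which acts on the gp130 receptor, measured 0.759, 0.284 and 0.241 FPKM in the NB4 controls and 1.09, 1.58 and 1.04 FPKM in the Kasumi-1 controls. CISH, a STAT5 target that binds cytokine receptors, measured 2.93, 3.54 and 2.64 FPKM in the NB4 controls and 2.15, 2.77 and 2.12 FPKM in the Kasumi-1 controls. SOCS3 was higher in each Kasumi-1 control, and CISH overlapped. The 4 genes together summed to 6.83 to 7.77 FPKM in NB4 controls and 7.56 to 9.32 FPKM in Kasumi-1 controls. The sums overlapped. CISH made up 38.7% to 45.5% of the sum in NB4 and 25.7% to 29.7% in Kasumi-1, while SOCS1 made up 28.0% to 41.8% of it in NB4 and SOCS2 made up 53.4% to 61.7% of it in Kasumi-1. SOCS1 overlaps RMI2 on the other strand, SOCS2 overlaps SOCS2-AS1 and CISH overlaps MAPKAPK3, and whether the counting used strand is not given in the sources used here.

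All 3 STAT mRNAs were higher in Kasumi-1. STAT3, which acts downstream of gp130 and the G-CSF receptor, measured 17.2, 15.1 and 17.1 FPKM in the NB4 controls and 27.6, 30.3 and 26.2 FPKM in the Kasumi-1 controls. STAT5A measured 8.96, 5.88 and 10.8 FPKM in the NB4 controls and 31.4, 31.9 and 31.2 FPKM in the Kasumi-1 controls. STAT5B measured 9.86, 7.95 and 11.0 FPKM in the NB4 controls and 15.8, 15.1 and 15.9 FPKM in the Kasumi-1 controls. None of these 3 genes overlapped between the lines, where 43.1% of all genes lay apart with the lower values in NB4, and STAT5A was the farthest apart of the 3. STAT5A and STAT5B are close paralogs, neighbours on chromosome 17 at chr17:42287547-42311943 and chr17:42199168-42276707 (GRCh38, GENCODE release 29), and how shared reads were split between them is uncertain. Their summed FPKM, which also moves with the split where exon lengths differ, was 13.8 to 21.8 FPKM in NB4 controls and 47.0 to 47.2 FPKM in Kasumi-1 controls.

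**Figure D1:**
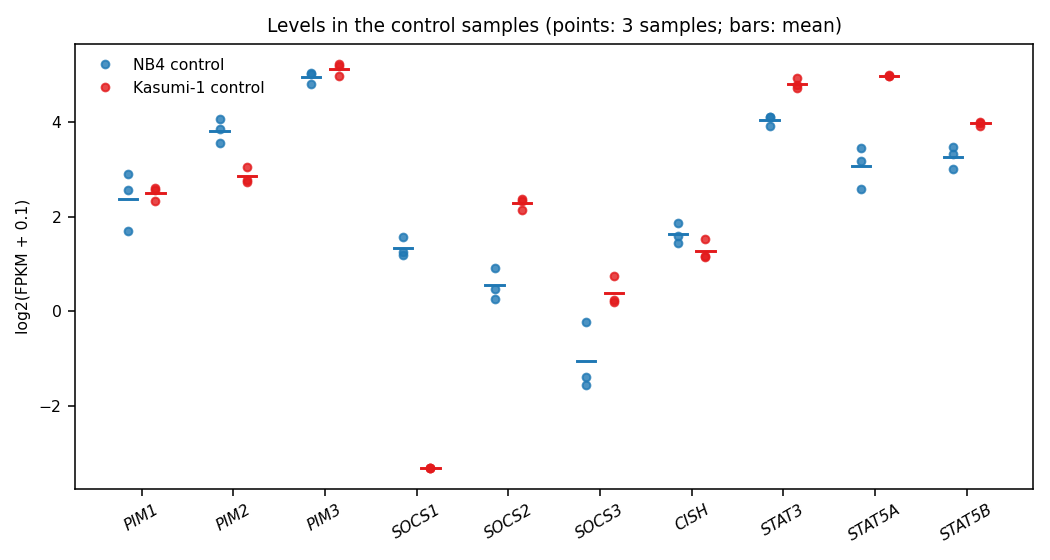
Levels of the 10 genes in the 6 control samples, as log2(FPKM + 0.1) on the vertical axis, with a point per sample (blue for NB4, red for Kasumi-1) and a bar at the mean of 3. SOCS1 is listed at 0 in Kasumi-1 and sits at the floor that the added 0.1 sets, PIM1 and PIM3 overlap between the lines, and STAT5A lies between 5.88 and 10.8 FPKM in NB4 against 31.2 to 31.9 FPKM in Kasumi-1.

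On the log2 scale after addition of 0.1 FPKM, the difference of NB4 from Kasumi-1 controls was 0.96 ± 0.14 (SE, 3 against 3 samples) for PIM2, -1.74 ± 0.17 for SOCS2, -1.45 ± 0.34 for SOCS3, -1.91 ± 0.19 for STAT5A, -0.76 ± 0.09 for STAT3 and -0.71 ± 0.11 for STAT5B. It was -0.12 ± 0.26 for PIM1, -0.17 ± 0.09 for PIM3 and 0.36 ± 0.15 for CISH. In limma's fit across all genes, 7 of the 10 genes passed an adjusted p of 0.05 with a difference of at least 0.58 in size, 2 higher and 5 lower in NB4, where 52.4% of all 12302 genes tested passed, 22.7% higher and 29.7% lower. The 7 were PIM2, SOCS1, SOCS2, SOCS3, STAT3, STAT5A and STAT5B, and no fold is given for SOCS1 because Kasumi-1 was listed at 0. SOCS1 reached the minimum mean for testing through NB4 alone, so that it would differ was set by the filter, and 6 of the 7 do not rest on this. With values scaled to TPM, STAT3 at -0.56 and STAT5B at -0.50 no longer reached that size and 5 genes passed. Without NB4 control 3 the count was again 7, and without NB4 control 2 it was 6, with STAT5B at -0.58 left out.

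In order of mean level, NB4 controls ran from PIM3 through STAT3, PIM2, STAT5B, STAT5A, PIM1, CISH, SOCS1 and SOCS2 to SOCS3. Neighbours whose samples overlapped in that order were STAT3 and PIM2, and each adjoining pair from STAT5B to SOCS1. Kasumi-1 controls ran from PIM3 through STAT5A, STAT3, STAT5B, PIM2, PIM1, SOCS2, CISH and SOCS3 to SOCS1, with overlap between PIM3 and STAT5A and between PIM1 and SOCS2. With OGP46 the order stayed the same in NB4. In Kasumi-1 it differed in a single place, where PIM1 stood below SOCS2 with no overlap between them.

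The first question of the study for these genes is what OGP46 did to their mRNA in each line. In NB4, PIM1 measured 7.32, 3.13 and 5.83 FPKM in control samples 1, 2 and 3 and 11.2, 5.01 and 10.6 FPKM in the OGP46 samples of the same numbers. The 3 samples of each group were spread wide and the groups overlapped, because both samples numbered 2 were low, yet each OGP46 sample lay above the control of its number. The log2 ratios within the numbers were 0.60, 0.66 and 0.85. In Kasumi-1, PIM1 measured 4.95, 5.85 and 5.95 FPKM in the controls and 3.10, 2.49 and 3.58 FPKM with OGP46. There the groups did not overlap and each OGP46 sample lay below every control, with log2 ratios within the numbers of -0.66, -1.20 and -0.72. PIM1 thus differed in opposite directions in the lines, from the same control level of 5.43 ± 2.12 FPKM in NB4 and 5.58 ± 0.547 FPKM in Kasumi-1 (SD, n = 3) to 8.94 ± 3.41 and 3.06 ± 0.547 FPKM.

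The other PIM genes did not share that pattern. PIM2 measured 16.7, 13.4 and 20.2 FPKM in NB4 with OGP46, above the control of the same number in 3 of 3 pairs but overlapping with the controls. In Kasumi-1 PIM2 measured 7.40, 7.52 and 7.06 FPKM with OGP46, inside the range of the controls. PIM3, a kinase that like PIM1 phosphorylates the death promoter BAD, measured 33.1, 34.4 and 37.1 FPKM in NB4 with OGP46, all above the 3 controls, and 32.0, 34.8 and 37.4 FPKM in Kasumi-1 with OGP46, where the groups overlapped. The summed PIM mRNA went from 42.5 to 54.8 FPKM in NB4 controls to 52.8 to 67.9 FPKM with OGP46, and from 42.9 to 51.4 FPKM in Kasumi-1 controls to 42.5 to 48.1 FPKM with OGP46. The share of PIM1 in it was 9.49% to 18.3% in NB4 and 5.55% to 7.45% in Kasumi-1 with OGP46. Only in Kasumi-1 did the PIM1 shares of the groups lie apart.

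Among the feedback inhibitors, no gene had OGP46 samples clear of the controls in either line. In NB4 with OGP46, SOCS1 measured 2.58, 1.37 and 2.29 FPKM and SOCS2 measured 0.664, 1.60 and 1.13 FPKM in samples 1, 2 and 3. SOCS3 measured 0.879, 0.273 and 1.01 FPKM and CISH measured 2.78, 3.51 and 3.20 FPKM there. For SOCS1, SOCS2, SOCS3 and CISH alike the pairs of the same number went both ways. In Kasumi-1 with OGP46, SOCS1 was listed at 0 in samples 1 and 2 and at 0.0620 FPKM in sample 3. SOCS2 measured 5.75, 4.57 and 4.53 FPKM and SOCS3 1.75, 1.27 and 0.970 FPKM, each with 1 pair higher and 2 lower. CISH measured 1.85, 2.12 and 1.81 FPKM, below the control of the same number in 3 of 3 pairs, and the groups met at 2.12 FPKM.

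STAT3 in NB4 with OGP46 measured 18.9, 17.8 and 20.8 FPKM, above all 3 controls. In Kasumi-1 with OGP46 it measured 27.3, 27.3 and 24.3 FPKM, below the control of the same number in each pair and overlapping as groups. STAT5A measured 8.45, 6.45 and 12.2 FPKM in NB4 and 32.0, 32.0 and 31.3 FPKM in Kasumi-1 with OGP46, within or close to the range of the controls. STAT5B measured 10.4, 10.2 and 12.6 FPKM in NB4 with OGP46, overlapping with the controls. In Kasumi-1 STAT5B measured 16.6, 16.1 and 17.2 FPKM, all above the controls. The sum of STAT5A and STAT5B was 16.6 to 24.7 FPKM in NB4 and 48.0 to 48.6 FPKM in Kasumi-1 with OGP46. In Kasumi-1 the sums of the groups lay apart by little, with means of 47.1 FPKM in controls and 48.4 FPKM with OGP46. Of all genes tested there, 17.4% had groups that lay apart with the higher values under OGP46.

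**Figure D2:**
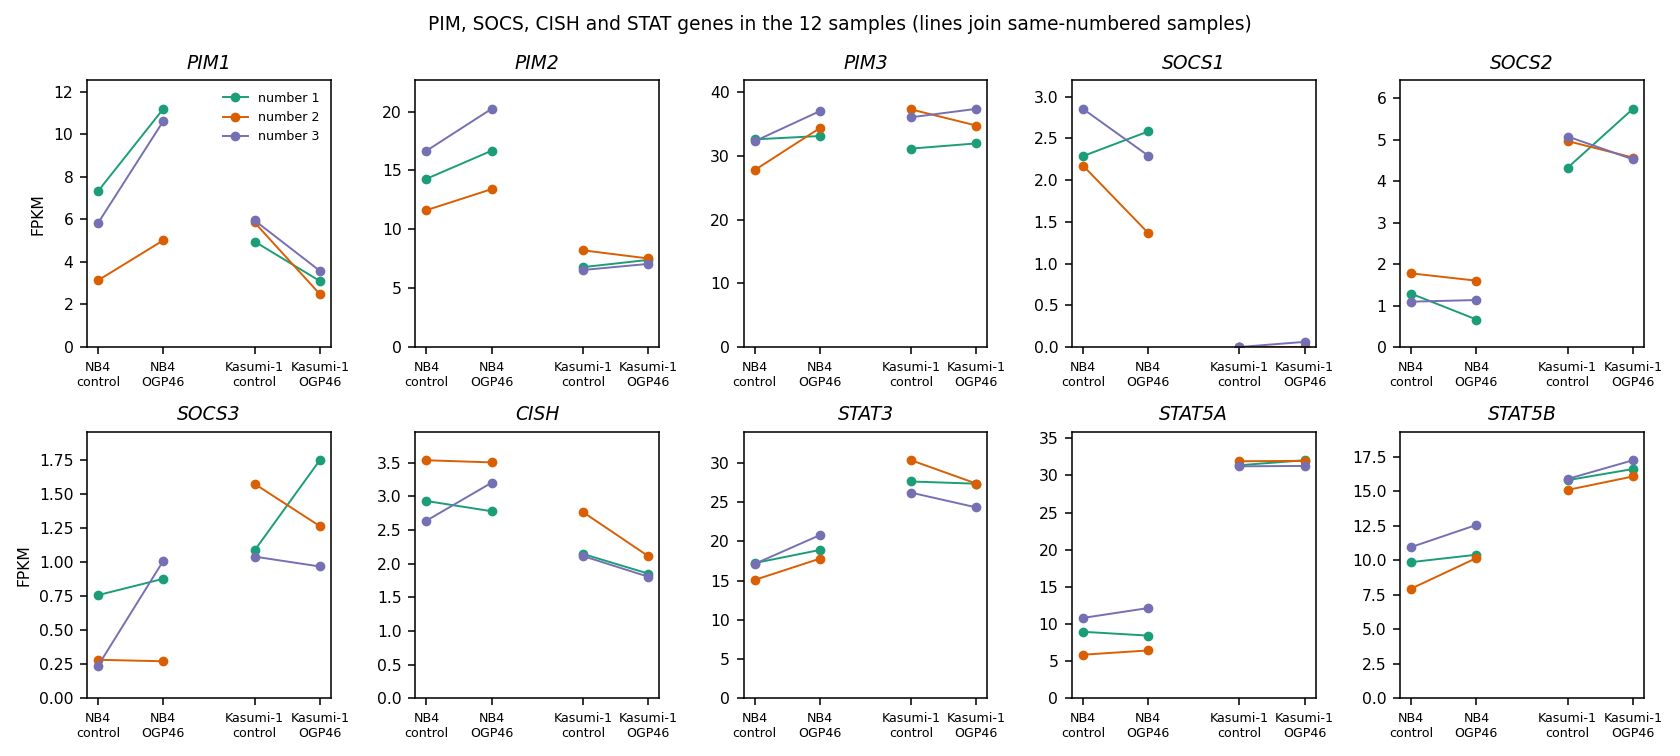
FPKM of each gene on the vertical axis, which starts at 0 in each panel and differs in scale between panels, in the 12 samples, with lines joining the control and the OGP46 sample of the same number in a line. In the PIM1 panel all 3 NB4 lines run upwards, from 3.13 to 5.01 FPKM for number 2, and all 3 Kasumi-1 lines run downwards, from 5.85 to 2.49 FPKM for number 2.

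Set against all genes, most of these differences were small. The median of all 11750 genes tested in NB4 was itself 0.18 above 0 on the log2 scale, and that of 11835 genes tested in Kasumi-1 was 0.05. The median of the 10 genes was 0.19 in NB4, and that of the 9 tested in Kasumi-1 was 0.01. In NB4 the differences were 0.71 ± 0.37 (SE, 3 against 3) for PIM1, 0.62 ± 0.48 for SOCS3, 0.23 ± 0.17 for PIM2, 0.22 ± 0.09 for STAT3, 0.21 ± 0.14 for STAT5B and 0.18 ± 0.09 for PIM3. STAT5A at 0.07 ± 0.27 and CISH at 0.06 ± 0.14 were near 0, and SOCS1 at -0.26 ± 0.23 and SOCS2 at -0.32 ± 0.30 were below it. After each sample was centred on its median, PIM2, PIM3, STAT3 and STAT5B came to between -0.04 and 0.01 in NB4 and PIM1 to 0.49, so the higher values of those 4 genes were of the size of the shift of all genes. In Kasumi-1, PIM1 was at -0.86 ± 0.13, which is 1.81-fold lower, followed by CISH at -0.26 ± 0.13, and the other 7 genes lay between -0.09 and 0.09. SOCS1 had too low a mean in Kasumi-1 to be tested.

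By limma without pairing the samples, 0 of 10 genes passed the threshold in NB4, where 1.56% of all genes passed, and 0 of 9 passed in Kasumi-1, where 0.0338% of all genes passed. At an unadjusted p under 0.05 there were 0 of these genes in NB4, against 29.1% of all genes, and 1, PIM1, in Kasumi-1, against 15.6% of all genes. Samples of the same number deviated together within each line, in NB4 number 2 the most and number 3 the least, so the number was also used as a block. With the block the SE of PIM1 was 0.10 in NB4 and 0.11 in Kasumi-1, and PIM1 passed in both lines, higher in NB4 and lower in Kasumi-1. It was the 1 of 10 genes that passed in NB4, where 6.21% of all genes passed and 5.06% passed as higher, and the 1 of 9 in Kasumi-1, where 0.617% of all genes passed and 0.346% passed as lower. In NB4 the block with median centring left PIM1 at 0.49, short of the size of 0.58, and the split of all genes passing went from 595 higher and 135 lower to 188 higher and 203 lower. Without the pair numbered 2, SOCS3 also passed in NB4 with the block, which made 2 genes. Groups that did not overlap were found for 2 of 10 genes in NB4, PIM3 and STAT3, both higher, where 34.7% of all genes had such groups and 32.7% had them higher. In Kasumi-1 they were found for PIM1, lower, and STAT5B, higher, 2 of 9 genes, where 22.6% of all genes had such groups, 17.4% higher and 5.23% lower.

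**Figure D3:**
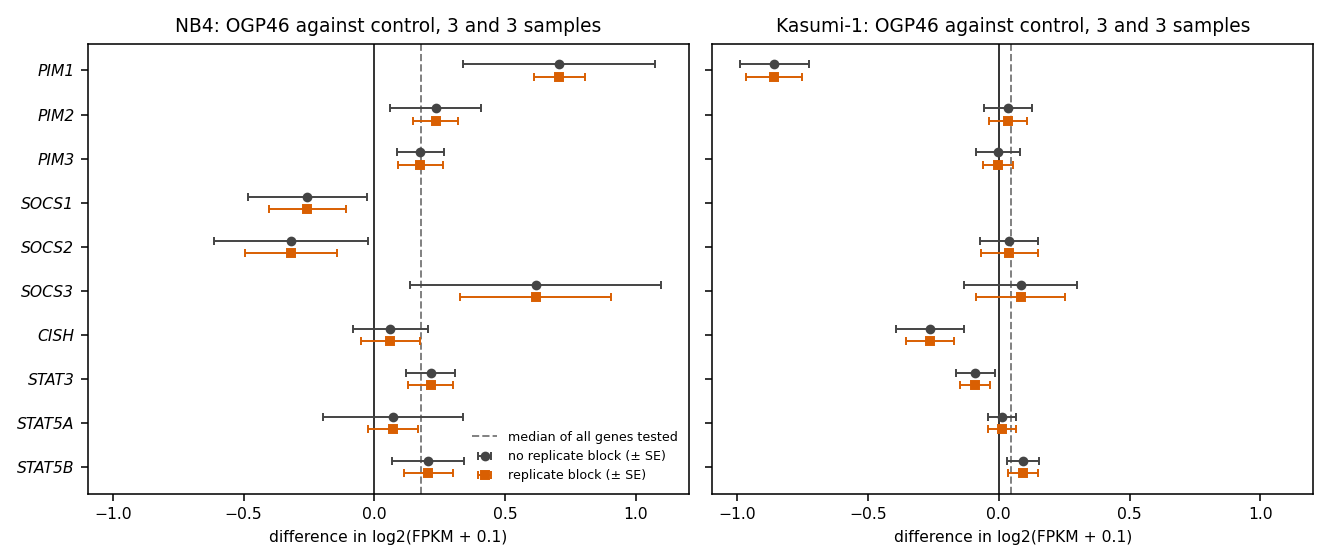
Difference in log2(FPKM + 0.1) between OGP46 and control on the horizontal axis for each gene, in NB4 (left) and Kasumi-1 (right), with bars of 1 SE from 3 against 3 samples, without the block (circles) and with it (squares). PIM1 stands at 0.71 in NB4 and -0.86 in Kasumi-1, its bar in NB4 narrows from 0.37 to 0.10 with the block, and the dashed line is the median of all genes tested, 0.18 and 0.05. SOCS1 has no point in Kasumi-1, where it was not tested.

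The difference between the lines in the effect of OGP46 was fitted in all 12 samples together. It was 1.57 ± 0.44 for PIM1 and 0.31 ± 0.12 for STAT3 on the log2 scale, and the median of all 12309 genes was 0.12. CISH was at 0.32 ± 0.20, and PIM2 at 0.20 ± 0.21, PIM3 at 0.18 ± 0.13, STAT5A at 0.06 ± 0.30 and STAT5B at 0.11 ± 0.16 were closer to that median. SOCS3 was at 0.53 ± 0.59 and SOCS2 at -0.36 ± 0.35. Without the block 0 of 10 genes passed an adjusted p of 0.05 in limma, as did 0% of all genes. An unadjusted p under 0.05 was found for 2 of the 10, PIM1 and STAT3, against 11.0% of all genes. With the block the SE of PIM1 was 0.16 and PIM1 passed, 1 of 10 where 1.93% of all genes passed. PIM1 and STAT3 were the 2 genes with all 3 NB4 pairs higher and all 3 Kasumi-1 pairs lower with OGP46, a pattern that 3.69% of all genes had.

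In NB4, samples of the same number shared part of their distance from the group means, number 2 the most and number 3 the least. Sample 2 was the lowest of its group, in both control and OGP46, for PIM1, PIM2, SOCS1, STAT3, STAT5A and STAT5B, and the highest in both groups for SOCS2 and CISH. In Kasumi-1 sample 3 was the lowest in both groups for PIM2, SOCS3, CISH, STAT3 and STAT5A. The coefficient of variation of PIM1 was 39.1% over the NB4 controls and 9.80% over the Kasumi-1 controls, and that of STAT5A was 29.2% and 1.14%. What the numbers stand for is not given in the labels.

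The genes whose pattern was most like each of these were found over the 12 samples, after the mean of each line was subtracted from the log2 values, among 9934 genes whose mean reached 1 FPKM. For PIM1 they were BAD (Pearson r 0.929), GSN (0.916) and PTGER2 (0.909). BAD measured 9.10 ± 1.21 FPKM in NB4 controls and 11.0 ± 1.40 with OGP46, and 12.4 ± 0.316 in Kasumi-1 controls and 10.7 ± 0.620 with OGP46 (SD, n = 3). BAD was found by its likeness to PIM1 in these samples, so a shared direction follows from the choice. For PIM2 they were CREB3 (0.969), DOK1 (0.951) and IQSEC1 (0.950), and for PIM3 CHAF1A (0.964), IL17RA (0.935) and CBFA2T2 (0.931). For STAT3 they were BAHD1 (0.955), PABPC1 (0.951) and AJUBA (0.947), for STAT5A NAB2 (0.966), EPX (0.963) and PCSK6 (0.956), and for STAT5B TEC (0.963), TMED8 (0.928) and RSL24D1 (0.928). SOCS1 had the lowest values, with MTMR4 (0.840), GRAP (0.809) and PMF1-BGLAP (0.800), while SOCS2 was most like RAB20 (0.936), CGREF1 (0.936) and DHRS9 (0.922) and CISH most like HIGD2A (0.948), CYB5A (0.937) and IDH3G (0.936). No gene was searched for SOCS3, whose mean was under 1 FPKM. The points share libraries, treatment and sample number, and the values describe these 12 samples.

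The other genes of the pathway were taken from 8 lists that hold 83 genes besides the 10. These lists were also chosen with earlier results of these data known, so their counts and p-values are a description. In NB4, 61 of them could be tested and 5 rose with OGP46 without the block (8.2%, against 1.56% of all genes), while 0 fell. With the block 11 rose (18.0%, against 6.21% of all genes) and 0 fell. IL10 is counted in both and was tested only through its level with OGP46. In Kasumi-1, 0 of 61 passed in either direction with limma, without and with the block, where 0.0338% and 0.617% of all genes passed. Of the 61, 15 and 20 had an unadjusted p under 0.05, a larger share than the 15.6% and 22.9% of all genes. The 5 calls in NB4 rest on the FPKM as deposited: scaled to TPM, centred on the median or quantile normalized, 0 of them and 0% of all genes passed without the block. With the block and these scalings 7, 6 and 7 passed in that order, where 3.83%, 3.33% and 3.38% of all genes passed. Leaving out any 1 of the NB4 samples other than OGP46 sample 2 also left 0, where at most 0.017% of all genes passed. Without OGP46 sample 2 there were 7, where 3.37% of all genes passed.

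Upstream of the STAT factors, IL10, the cytokine that signals through STAT3, was low but rose in NB4. It measured between 0.0280 and 0.0619 FPKM in NB4 controls and between 0.207 and 0.648 FPKM with OGP46. In Kasumi-1, IL10 was at 0 throughout. The log2 difference of IL10 in NB4 was 1.87 ± 0.37 (adjusted p = 0.0434 by limma, 0.00228 with the block). The control mean of IL10, 0.0488 FPKM, was under the minimum of 0.1 FPKM, so IL10 was tested only through its level with OGP46 and its call is no independent support. IL10RB, a chain of the IL-10 receptor that other cytokines share, measured 10.2 to 13.5 FPKM in NB4 controls and 16.6 to 19.5 FPKM with OGP46, a difference of 0.60 ± 0.12 (adjusted p = 0.0451, 0.00258 with the block). IL10RA, the chain that binds IL-10, measured 0.439, 1.99 and 2.68 FPKM in NB4 controls in rising order and 1.48, 6.35 and 8.56 FPKM with OGP46. Its groups overlapped, and its difference of 1.60 passed with the block alone (limma adjusted p = 6.42e-06, against 0.188 without). Both chains of the IL-10 receptor passed in NB4 with the block, as 2 of 11 receptor genes tested (18.2%, against 6.21% of all genes). Of the 4 JAK kinases, 3 were tested in NB4 and 0 passed, and TYK2, the most abundant of them, measured 35.7 ± 2.04 FPKM in NB4 controls and 46.1 ± 3.52 FPKM with OGP46, with a difference of 0.37 ± 0.09 that fell short of the size of 0.58. Of the other STAT genes 0 of 3 tested passed in either line. Of all genes, 1.56% passed in NB4 and 0.0338% in Kasumi-1 without the block, and 6.21% and 0.617% with it.

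Among the genes that restrain the pathway, 0 of 4 further SOCS genes passed in either line, with SOCS4 at 5.72 ± 0.953 FPKM in NB4 controls and 6.44 ± 0.563 FPKM with OGP46. Of 11 other negative regulators, 1 rose in NB4 without the block and 2 with it (9.09% and 18.2%, against 1.56% and 6.21% of all genes). Scaled to TPM, median centred or quantile normalized, 0 passed there without the block, as did 0% of all genes. In Kasumi-1, where 0.0338% and 0.617% of all genes passed, 0 of the 11 did. SH2B3, the adaptor LNK that restrains JAK2 signalling, measured 15.1 to 17.8 FPKM in NB4 controls and 23.0 to 27.5 FPKM with OGP46 (difference 0.64 ± 0.10, adjusted p = 0.0335 by limma, 5.27e-04 with the block). SH2B3 in Kasumi-1 was 11.1 ± 0.710 FPKM in controls and 11.6 ± 0.735 FPKM with OGP46. PTPRC, the phosphatase CD45 on the surface of white blood cells, measured 9.0 to 17.1 FPKM in NB4 controls and 14.4 to 28.4 FPKM with OGP46, and its difference of 0.81 passed with the block (limma adjusted p = 2.54e-04, against 0.13 without).

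Of 18 known STAT3 or STAT5 target genes, 2 rose in NB4 without the block and 6 with it (11.1% and 33.3%, against 1.56% and 6.21% of all genes). After scaling to TPM, median centring or quantile normalization, 0 passed without the block, as did 0% of all genes. CDKN1A, which encodes the cell cycle inhibitor p21 and is also a PIM kinase substrate, measured 1.15 to 1.77 FPKM in NB4 controls and 3.02 to 6.07 FPKM with OGP46 (difference 1.45 ± 0.26, adjusted p = 0.0364 by limma, 2.57e-05 with the block). TIMP1, a secreted inhibitor of metalloproteinases, measured 47.0 to 54.1 FPKM in NB4 controls and 72.6 to 85.5 FPKM with OGP46 (difference 0.65 ± 0.09, adjusted p = 0.0281 by limma, 3.48e-04 with the block). With the block the adhesion molecule ICAM1 rose by 1.23, the transcriptional repressor BCL6 by 1.01, the AP-1 subunit FOS by 0.85 and the NF-κB cofactor BCL3 by 0.80, with limma adjusted p of 1.91e-04, 0.0146, 0.0018 and 0.0134 against 0.343, 0.0846, 0.0885 and 0.192 without it. BCL6 was low, between 0.067 and 0.46 FPKM in the NB4 samples. Many of these genes also answer to other factors than STAT3 and STAT5. Of 10 PIM kinase substrates, 1 rose in NB4, CDKN1A, and 9 did not pass (10% passed, against 1.56% of all genes without the block and 6.21% with it).

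**Figure D4:**
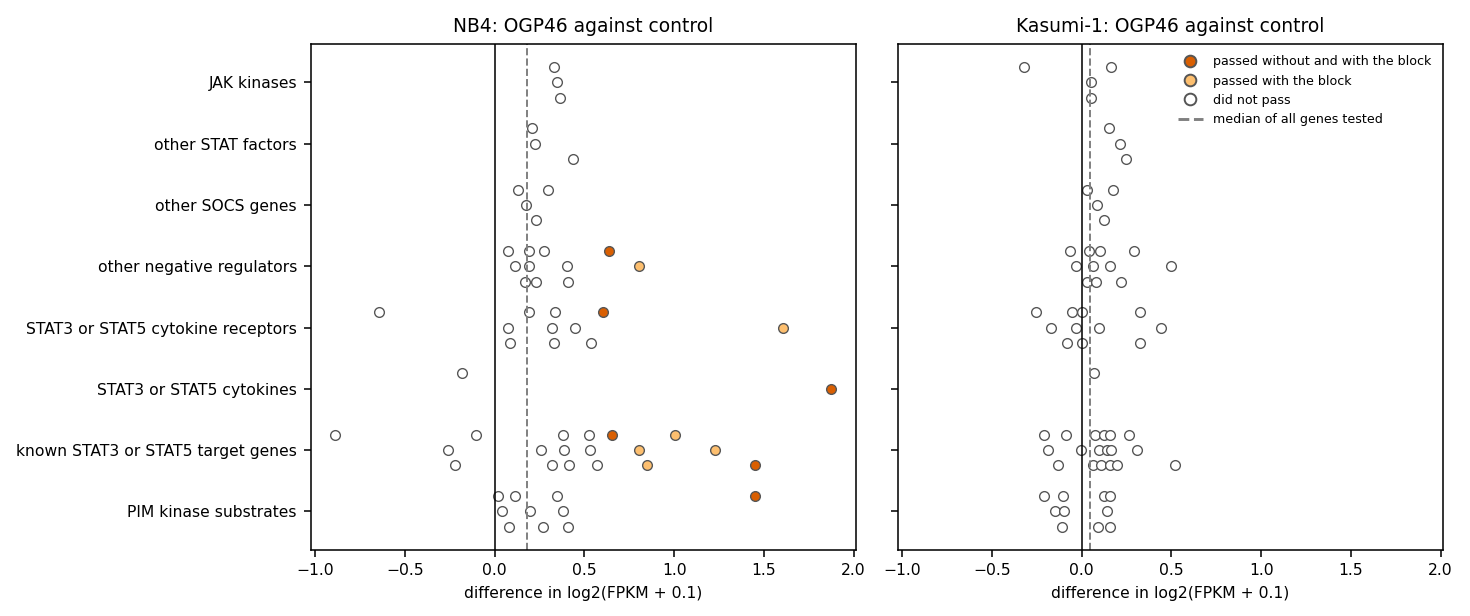
Difference in log2(FPKM + 0.1) between OGP46 and control on the horizontal axis for the pathway genes tested, by list, in NB4 (left) and Kasumi-1 (right), with a point per gene filled dark where it passed without and with the block and light where it passed with the block alone. In NB4 the filled points run from 0.60 (IL10RB) to 1.87 (IL10), no point is filled in Kasumi-1, and the dashed lines mark the medians of all genes tested at 0.18 and 0.05. CDKN1A appears in both the target and the substrate list.

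Whether these effects differed between the lines was tested for 63 pathway genes. Without the block 0 passed in limma, as did 0% of all genes. At an unadjusted p under 0.05 there were 15 of the 63, a larger share than the 11% of all genes. With the block 8 passed, each with the higher effect in NB4 (12.7%, against 1.93% of all genes). Of all genes passing there, 223 had the higher effect in NB4 and 14 the lower, and with the block and median centring 97 and 47. They include SH2B3 at 0.58 ± 0.09 (adjusted p = 0.0178), IL10RA at 1.68 ± 0.20 (adjusted p = 0.00741), CDKN1A at 1.29 ± 0.17 (adjusted p = 0.00958), ICAM1 at 1.10 ± 0.21 and TIMP1 at 0.66 ± 0.12 (adjusted p = 0.0311 for both) in limma with the block. Of these, IL10RA had a mean of 0.0634 FPKM in Kasumi-1 controls and 0.0589 FPKM with OGP46. Both lie under the minimum of 0.1 FPKM, so its difference between the lines rests almost wholly on NB4. IL10 is counted among the 8, but it was at 0 in Kasumi-1 and its difference there only repeats that of NB4. The other two, BAD at 0.48 ± 0.10 (adjusted p = 0.0374) and VEGFA at 0.65 ± 0.13 (adjusted p = 0.0342), passed in this comparison and in neither line, and VEGFA was named after its values were seen.

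Markers of monocytes and macrophages summed to more with OGP46 in both lines, and single markers passed the threshold in NB4 alone. The sum of 8 of them (CD14, CD68, ITGAM, ITGAX, CSF1R, FCGR1A, CD163 and C5AR1) was 17.0 to 19.0 FPKM in NB4 controls and 28.4 to 37.0 FPKM with OGP46, and 14.2 to 18.7 FPKM in Kasumi-1 controls and 19.98 to 22.9 FPKM with OGP46. CD68 had the highest mean of these markers in each group, at 8.93 FPKM in NB4 controls and 13.7 FPKM with OGP46. In Kasumi-1 it was 9.16 and 12.6 FPKM. In NB4, 4 of 7 markers tested rose without the block and 6 with it, against 1.56% and 6.21% of all genes. After scaling to TPM, median centring or quantile normalization, 0 passed in NB4 without the block, as did 0% of all genes. In Kasumi-1 0 of 5 tested passed in limma without or with the block, where 0.0338% and 0.617% of all genes passed. The list was chosen with earlier results of these data known, so these counts are a description. CD163 was at 0 in every NB4 sample. The part of these markers in the values of PIM1 and of the pathway genes was not tested. Of the lists for other cells, 5 T and NK cell markers summed to 47.8 to 101 FPKM in NB4 with 3 of them under 1 FPKM in every NB4 sample, and 5 epithelial markers summed to 40.3 to 56.1 FPKM in Kasumi-1 with 4 of them under 1 FPKM in every Kasumi-1 sample. Erythroid markers summed to at most 0.184 FPKM and fibroblast markers to at most 0.0165 FPKM in any sample.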

How the data were processed

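The mRNA was sequenced from poly(A) libraries made with a stranded kit, in 3 control and 3 OGP46 samples each of NB4 and Kasumi-1. The authors deposited 1 FPKM value per gene symbol and sample. Per the labels, Trimmomatic, HISAT2, Cufflinks and HTSeq and build hg38 were used, while their versions and roles, the annotation and the use of strand in counting are not given in the sources used here. Of the deposited FPKM values, 632 lay above 0 and below 1e-04, so reads were shared out by an estimate, depth is unknown and no counting interval is given. After 27 symbols turned into dates were left out, 20003 genes remained, of which 19261 (96.3%) are in GENCODE release 29.

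Groups were compared on log2(FPKM + 0.1) with limma (version 3.58.1, run in R 4.3.3), using its moderated variances with a trend on the mean level, across every gene whose mean over the fitted samples reached 0.1 FPKM. A gene passed at a Benjamini-Hochberg adjusted p under 0.05 over all genes tested and a difference of at least 0.58 in size, which is 1.49-fold. The difference of the effects between the lines needed the adjusted p alone. A fold on this scale understates the change of low genes. Each p-value sets the difference between groups against the moderated spread between these samples.

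The fit without the sample number is the main one, and the number in the titles as a block is the alternative. Within a line, deviations from the group means of samples with the same number had a correlation of 0.44 to 0.85 in NB4 and 0.42 to 0.62 in Kasumi-1 over genes of at least 5 FPKM (0.20 to 0.62 and 0.16 to 0.40 over all genes tested), so the numbers were taken as pairs there. Over all genes tested, NB4 OGP46 sample 3 had a correlation of 0.20 with control 3 and a higher one with control 1, so that pair is uncertain. Between the lines the correlation of same-numbered controls was -0.01 to 0.04 over genes of at least 5 FPKM, so controls were not paired between lines.

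The 10 genes, the pathway and marker lists and the tests were chosen with earlier results of these data known. Named beside the 10 are pathway genes that passed in either line, without or with the block (at most 6 a list), or the most abundant gene of a list with none, and the 3 genes most like each member. For 1 such gene the values are left out. Alternatives were the pseudocount, the filter, TPM, median centring, quantile normalization, the moderation, the block and leaving out each sample. RefSeq promoter windows of GRCh38.p14 were searched for the motif.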

Additional observations from a re-analysis of the deposited data

Results flagged for a closer look

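PIM1 was flagged because the effect of OGP46 differed between the cell lines. The difference of the log2 effects was 1.57, NB4 above Kasumi-1, with PIM1 higher in 3 of 3 same-numbered pairs in NB4 and lower in 3 of 3 in Kasumi-1. It passed the adjusted p of 0.05 in limma with the replicate block and did not pass without it. STAT3 was flagged for the same opposite signs in every pair, with a difference of 0.31 that did not pass in limma without or with the block. Both are a description, since PIM1 and STAT3 were chosen with results of these data known. In Kasumi-1 the STAT3 groups overlapped, and after median centring the NB4 difference of STAT3 was -0.0047. No group had 4 or more samples, so no single sample could be flagged by its distance from the others.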

How the results depend on the processing

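The count of the 10 genes passing between the control groups was 7 and lay between 5 and 8 over the alternatives. It was 7 with the replicate block, although the numbers do not pair samples between the lines. In NB4 the count with OGP46 was 0 in the fit as reported, 0 with the 9 other settings without the block and 0 to 0 without each sample in turn. It was 1 with the replicate block and 1 with the replicate block and TPM, 0 with the block and median centring or quantile normalization, and, chosen after seeing the data, 1, 2 and 1 with the replicate block without pair 1, 2 and 3. In Kasumi-1 the count was 0 as reported and 1, PIM1, with a minimum mean of 1 FPKM, TPM, median centring, quantile normalization, robust moderation, the replicate block, the block with each scaling, and the block without any 1 pair. It was 0 to 1 without each sample, and it was 1 without OGP46 sample 3. The count for the difference between the lines was 0 as reported and 1 with the replicate block, with the block and each scaling, and with the block without any 1 of the 6 pairs. The pathway count in NB4 was 5 as reported, 3 with a pseudocount of 1, and 0 with no filter, TPM, median centring, quantile normalization or no mean-variance trend. It was 0 to 7 without each sample, 11 with the replicate block, 6 or 7 with the block and a scaling, and 13, 13 and 11 with the block without pair 1, 2 and 3. The pathway count in Kasumi-1 was 0 under each alternative run. The block changed no other call among these counts. The cause of these shifts was not tested.

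PIM1 kept its sign under each alternative, from 0.36 to 1.08 in NB4, -0.98 to -0.72 in Kasumi-1 and 1.22 to 1.93 for the difference between the lines without each sample. Depth is unknown, so SOCS1 in Kasumi-1, SOCS3, IL10 and BCL6 rest on low values whose counting error cannot be given, and 3 samples a group limit the rest.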
